A study of Rattus norvegicus with 16 samples.

Results

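Mesangial and smooth muscle genes were followed in glomeruli from 16 male Wistar rats of about 175 g, in a study of experimental nephrotic syndrome. The members are Pdgfrb, Pdgfra, Itga8, Gata3, Thy1, Acta2, Tagln, Myh11, Cnn1 and Myl9, taken by symbol from the deposited expression table. Of these 10 genes, 9 are among the 13222 genes of the table, and Cnn1 was not analysed here. The rats formed 4 groups of 4. Control rats are labelled healthy. The PAN group received puromycin aminonucleoside, a toxin that injures podocytes, by intravenous injection. The other 2 groups received PAN and a daily gavage of either pioglitazone, a full agonist of the nuclear receptor PPARγ, or GQ-16, a partial agonist of the same receptor. Sham vehicle was also given by gavage, but the labels do not say to which rats, and they give no doses. Glomeruli were obtained by sieving on day 11, so each library is a mixture of glomerular cells with whatever tubule and vessel tissue passed the sieve. In such bulk samples more cells of a type and more RNA per cell cannot be told apart.

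Mesangial cells lie between the capillary loops of the glomerulus, hold the loops in place and contract like smooth muscle. They are recruited during development by PDGF-B, a growth factor from endothelial cells that acts on the receptor encoded by Pdgfrb. In glomerular disease mesangial cells can take up smooth muscle actin and other contractile proteins, and Acta2 is a standard marker of that state. Smooth muscle genes of this kind are known targets of serum response factor, which binds short A- and T-rich elements called CArG boxes together with myocardin-related cofactors.

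Promoter letters are shown for Acta2, the member whose promoter window held matches to this element, and for listed genes with full matches. A CArG box was searched as CCNNNNNNGG with the 6 central bases all A or T, in the 250 bases before each RefSeq gene start of assembly GRCr8. This pattern is its own reverse complement, so 1 search covers both strands. It occurred in 1.5% of 33469 promoter windows, and in 8.08% when 1 of the central bases was allowed to depart, a class that includes the full matches. Promoters were matched for 4 of the 9 members, Pdgfra, Itga8, Gata3 and Acta2, and only Acta2 held a match, in 2 places that each had 1 departure. Of the genes in the serum response factor, contractile and mesangial lists described further on, Srf, Cnn2, Fhl2 and Dgkh held full matches and are shown beside it. Capitals mark the matches, counted from the gene start. In Acta2 (chr1:241172544-241172663, minus strand) they begin at -134 and -84. In Srf (chr9:21923966-21924045, plus strand) they begin at -81 and -61. The single matches in Cnn2 (chr7:10370353-10370412, minus strand), Fhl2 (chr9:52923357-52923416, minus strand) and Dgkh (chr15:60559888-60559957, minus strand) begin at -71, -58 and -144.
Acta2: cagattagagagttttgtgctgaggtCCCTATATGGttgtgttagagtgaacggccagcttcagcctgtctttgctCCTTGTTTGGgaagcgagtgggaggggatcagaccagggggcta
Srf: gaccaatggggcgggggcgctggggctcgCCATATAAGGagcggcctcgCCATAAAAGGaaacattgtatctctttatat
Cnn2: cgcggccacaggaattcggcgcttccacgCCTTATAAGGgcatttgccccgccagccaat
Fhl2: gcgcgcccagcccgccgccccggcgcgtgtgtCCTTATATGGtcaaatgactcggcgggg
Dgkh: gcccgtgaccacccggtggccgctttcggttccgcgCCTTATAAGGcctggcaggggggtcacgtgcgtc
A match is a description of the letters and no evidence that a factor binds there.

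Levels are given in CPM, the reads of a gene divided by the library's reads in all listed genes and scaled to a common total. Library totals ran from 13351137 to 21977663 reads, and the member with the fewest reads in any library, Pdgfra, still had 70. The share of reads from 21 mitochondrial genes was 13.9% to 39.6% in control rats and 5.98% to 10.8% in PAN rats. Control rats 2 and 3 had 39.6% and 32.6%, and GQ-16-treated rat 2 had 31.4%, while all other libraries were below 20%, so results are also given without those over 30%. Among summed marker levels, the 8 podocyte markers, all detected, ran from 2110 to 8350 CPM in control rats and from 6540 to 9680 CPM in PAN rats, with control rats 2 and 3 lowest. The sample titles carry library numbers, of which 3 of 4 in PAN but none in control are 25 or higher. Among treated rats only GQ-16-treated rat 4, at 27, and pioglitazone-treated rat 4, at 34, are. Treated and PAN rats thus differ in library numbers too.

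All members except Pdgfra rose in PAN rats. Against control, 8 of the 9 were called higher, at an adjusted p under 0.05 in limma over all genes, and none was called lower. With all rats and as deposited, the largest changes were those of the contractile genes Tagln, Acta2, Myl9 and Myh11, an order that other fits changed. Without PAN rat 1 Myh11, at 1.41, was below Thy1, at 1.54, and Pdgfrb, at 1.44, and among library numbers of 15 or lower Myl9, at 1.38, was also below Thy1, at 1.45. The background is high, since 21.7% of all genes were called higher and 0.522% lower, and the median change of all genes was 0.28 on the log2(CPM + 1) scale against 1.61 for the members. Scaling by the median ratio of the recovered reads moved the median of all genes to -0.0032 and that of the members to 1.31. With that scaling 7 members were called higher, Myh11 being the one lost, beside 7.12% of all genes. The 4 PAN rats lay above all 4 control rats for 7 members, beside 22.4% of all genes.

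The count depended on which control libraries were used. Without control rats 2 and 3 it was 3 of 9 (Acta2, Tagln and Myl9), and without GQ-16-treated rat 2 as well it was 0, with adjusted p-values of 0.0521 for Acta2, 0.06 for Tagln and 0.0522 for Myl9. The changes of Acta2, Tagln and Myl9 were at least 1.85, 2.57 and 1.30 in every alternative fit, beside 2.72, 3.21 and 1.90 with all rats. The part of the mitochondrial share in the result was not tested. Adding to the model whether a library's number is 25 or higher left 5 calls, and only Acta2 and Tagln were called among library numbers of 15 or lower, where PAN rat 4 stands alone and borrows the spread of the other groups. PAN injection and library number can thus not be fully told apart. Over all genes, 2943 were called with all libraries, 127 and 56 in the fits without high mitochondrial libraries, 393 with the library-number term and 79 among the low numbers.

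Tagln encodes transgelin, an actin-binding protein of smooth muscle also called SM22. Its level in control rats 1 to 4 was 26.4, 9.24, 7.18 and 12.0 CPM, and in PAN rats 1 to 4 it was 376, 96.5, 66.7 and 86.3 CPM. Every PAN rat lay above every control rat, and PAN rat 1 stood far above the other 3. The log2 change was 3.21 (SE 0.459, adjusted p = 0.000684 in limma), 2.92 with median-ratio scaling, 2.66 without PAN rat 1 and 2.69 without control rats 2 and 3. Among library numbers of 15 or lower it was 2.73.

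Acta2 encodes smooth muscle α-actin, the marker named above. Control rats 1 to 4 had 14.3, 7.04, 7.62 and 8.40 CPM, and PAN rats 1 to 4 had 153, 64.6, 50.7 and 35.0 CPM. The groups did not overlap, and PAN rat 1 was again highest. Its log2 change was 2.72 (SE 0.371, adjusted p = 0.000628 in limma), 2.44 with median-ratio scaling, 2.31 without PAN rat 1 and 1.85 among library numbers of 15 or lower. Acta2 is similar in coding sequence to the other actin genes, so a part of its reads may have been assigned to or from them.

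PAN rat 1 also had the highest summed level of 5 fibroblast markers, 2640 CPM against 177 to 374 CPM in the other PAN rats, and the highest of 6 leukocyte markers, 1190 against 563 to 751 CPM. Their part in the values of that rat was not tested. None of the 12 striated muscle markers was in the table.

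Myl9, the regulatory light chain of smooth muscle myosin, stood at 23.4, 11.1, 10.3 and 20.5 CPM in the 4 control rats and at 86.5, 67.6, 53.5 and 41.6 CPM in the 4 PAN rats. The groups were separate and the PAN rats less spread than for Tagln. Myl9 rose by 1.90 (SE 0.278, adjusted p = 0.000745 in limma) and by 1.61 with median-ratio scaling. Reads may be shared with its close relatives Myl12a and Myl12b.

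Myh11, the heavy chain of smooth muscle myosin, ranged from 7.37 to 17.5 CPM in control rats and was 74.4, 60.5, 32.2 and 16.1 CPM in PAN rats 1 to 4. PAN rat 4 lay within the control range, so the groups overlapped. The change of 1.71 (SE 0.575, adjusted p = 0.0444 in limma) was the weakest call. It was lost without control rat 2 or 3 or without PAN rat 1, 2 or 3, with adjusted p-values from 0.0667 to 0.141. With the library-number term it was 0.40, adjusted p = 0.621.

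**Figure D1:**
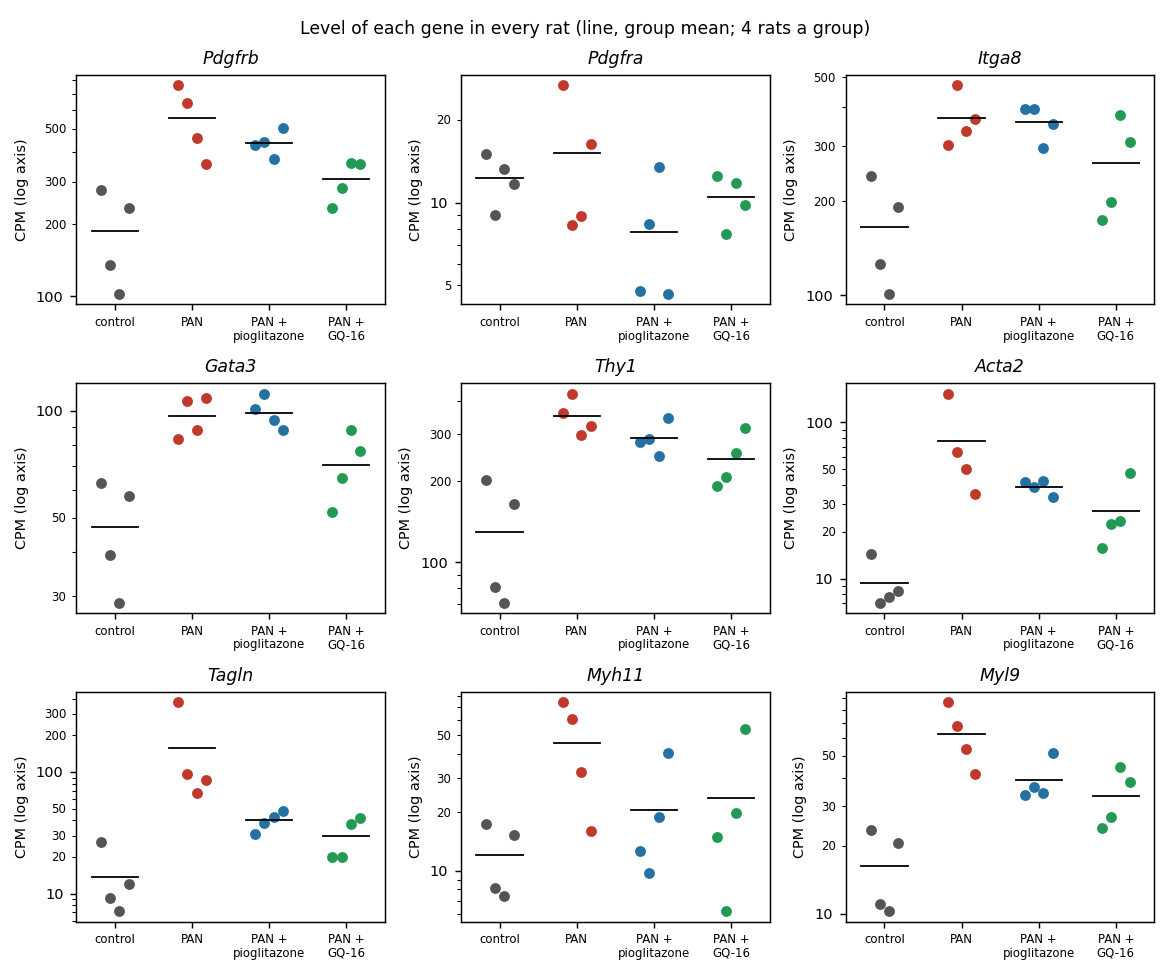
Level of each of the 9 genes in CPM on a log axis, 1 point per rat, with the 4 rats of a group side by side in replicate order and a line at the group mean. PAN rats lie above all control rats except for Pdgfra and Myh11, PAN rat 1 (the leftmost PAN point) is highest for Tagln and Acta2, and control rats 2 and 3 are the lowest controls for all genes except Pdgfra.

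The mesangial surface and identity genes rose as well, with log2 changes from 1.08 to 1.61, and whether these differ from those of the contractile genes was not tested. Pdgfrb was at 278, 135, 102 and 234 CPM in control rats and at 763, 642, 460 and 355 CPM in PAN rats. No PAN rat reached down into the control range. The log2 change was 1.61 (SE 0.291, adjusted p = 0.00226 in limma), and 1.06 without control rats 2 and 3, adjusted p = 0.0814.

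Thy1 encodes a cell surface protein that marks rat mesangial cells and is the target in the anti-Thy-1 nephritis model. It was at 203, 81.1, 70.8 and 165 CPM in control rats and at 361, 425, 297 and 323 CPM in PAN rats, again without overlap. Thy1 rose by 1.56 (SE 0.277, adjusted p = 0.00209 in limma), and the value was 0.93 without control rats 2 and 3, adjusted p = 0.0524.

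Itga8 encodes the integrin α8 chain, which anchors mesangial cells to the matrix. Its level was 242, 126, 101 and 192 CPM in control rats and 303, 472, 336 and 367 CPM in PAN rats. Gata3, a transcription factor of the mesangial lineage, was at 62.5, 39.2, 28.8 and 57.5 CPM in control and 83.4, 107, 88.1 and 109 CPM in PAN. For both genes the lowest PAN rat was rat 1, the reverse of Tagln and Acta2, and the groups were separate. Itga8 rose by 1.22 (SE 0.271, adjusted p = 0.0079 in limma) and Gata3 by 1.08 (SE 0.212, adjusted p = 0.00375). Without control rats 2 and 3 the changes were 0.75 for Itga8 and 0.67 for Gata3, with adjusted p-values of 0.271 and 0.109.

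Pdgfra, the other PDGF receptor, marks interstitial fibroblasts as well as some mesangial cells. It was at 15, 8.99, 13.3 and 11.7 CPM in control rats and at 26.8, 8.32, 8.97 and 16.3 CPM in PAN rats. The PAN rats lay on both sides of the control rats. The change was 0.16 (SE 0.337, adjusted p = 0.729 in limma, 95% interval -0.56 to 0.87), and its sign turned with median-ratio scaling, where it was -0.12, and without PAN rat 1, where it was -0.16.

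**Figure D2:**
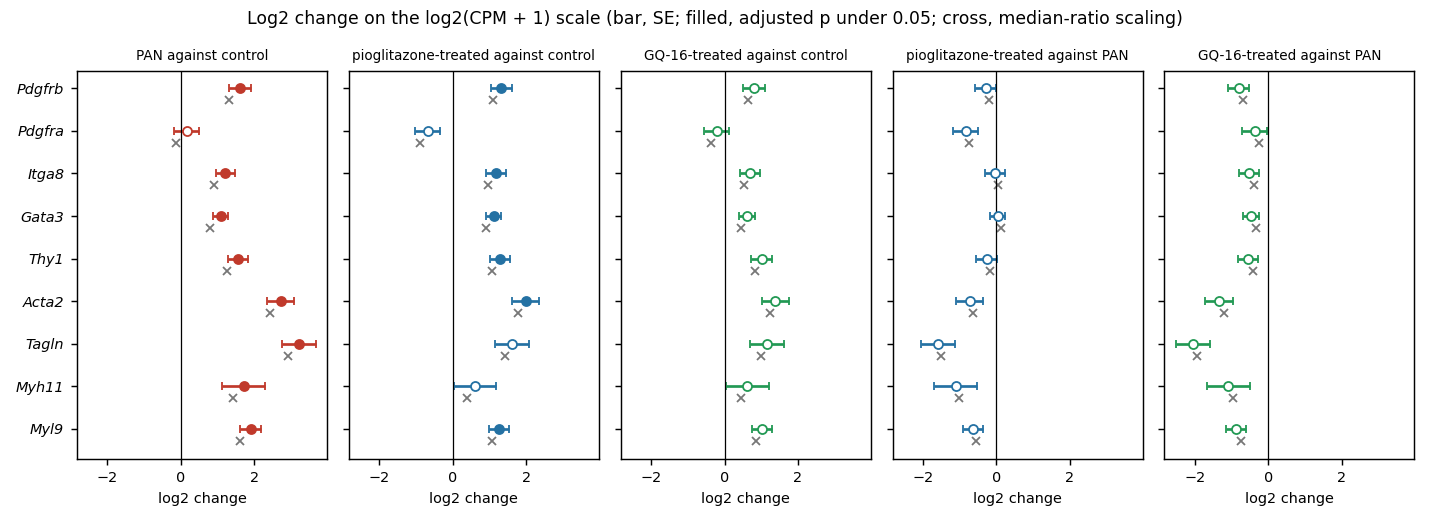
Log2 change of each gene on the log2(CPM + 1) scale in 5 comparisons, with bars for 1 SE, filled points for an adjusted p under 0.05 and crosses for median-ratio scaling. Filled points are found in PAN against control (8 of 9) and pioglitazone-treated against control (6 of 9), and in none of the other 3 panels.

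Ratios between members were formed within each library, since there the scaling cancels. They are relative to Pdgfrb, on a log2 scale of CPM not divided by gene length, so they are compared between rats and not between genes. Tagln relative to Pdgfrb ran from -4.29 to -3.40 in control rats and from -2.78 to -1.02 in PAN rats, without overlap. Acta2 ran from -4.80 to -3.74 in control and from -3.34 to -2.32 in PAN, also apart. For Myl9 the ranges were -3.60 to -3.30 in control and -3.25 to -3.10 in PAN, a shift of much smaller size. Pdgfra went the other way, from -4.33 to -2.94 in control and from -6.27 to -4.45 in PAN. Itga8, Gata3, Thy1 and Myh11 had overlapping ranges. Relative to the mesangial receptor, then, Tagln and Acta2 were higher in every PAN rat than in any control rat. No test was made of these ratios, and the share of all genes whose ratio to Pdgfrb separates the groups was not computed.

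**Figure D3:**
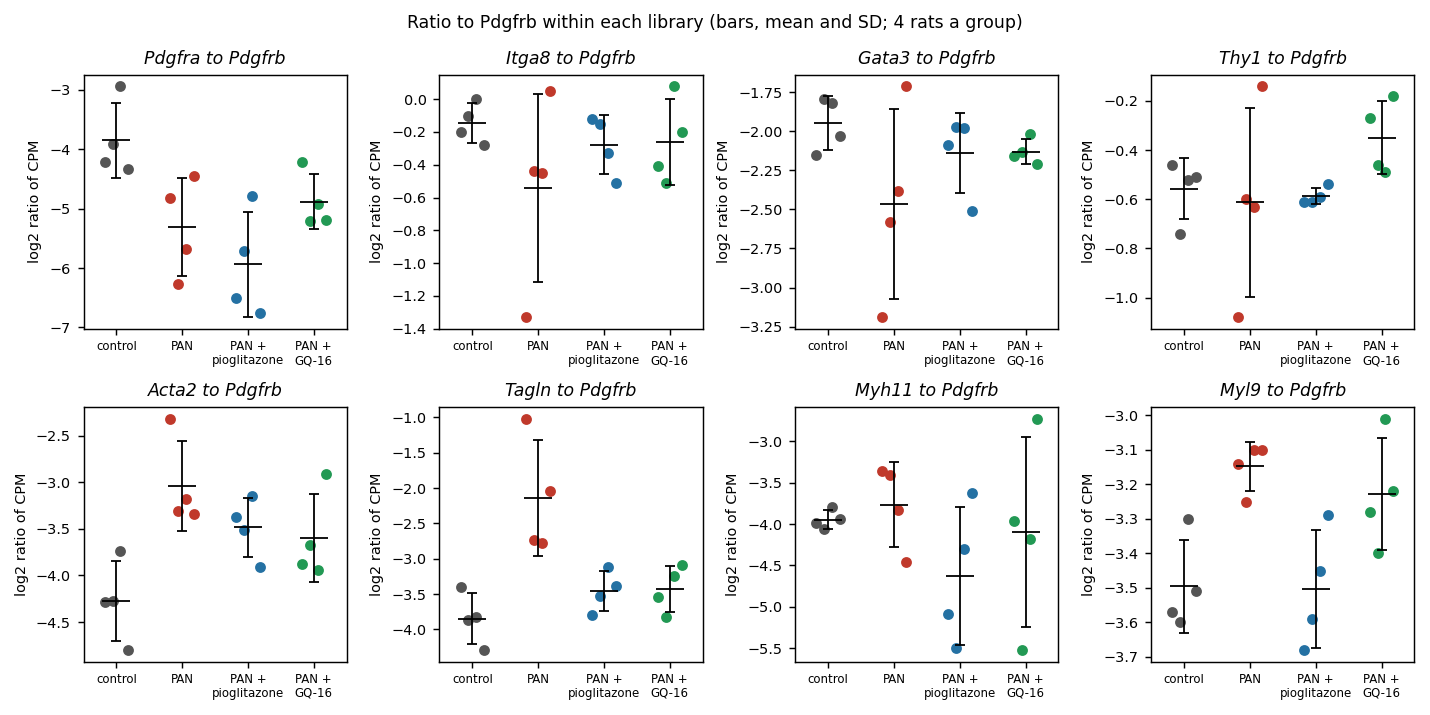
Log2 ratio of each gene's CPM to that of Pdgfrb in the same library, 1 point per rat, with bars for the group mean and SD. The ratio of Tagln lies between -2.78 and -1.02 in PAN rats and between -4.29 and -3.09 in all other rats, while Thy1, Itga8 and Gata3 overlap between the groups.

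Pioglitazone-treated rats also had higher levels of most members than control rats. Against control, 6 of 9 were called higher, Pdgfrb, Itga8, Gata3, Thy1, Acta2 and Myl9, beside 4.7% of all genes, and none was called lower, beside 0.287%. With median-ratio scaling 6 were called, beside 2.22% of all genes. The largest change was that of Acta2, at 41.5, 38.5, 42.0 and 33.5 CPM in the 4 rats against at most 14.3 CPM in control, a log2 change of 1.99 (SE 0.371, adjusted p = 0.0128 in limma). Pdgfrb rose by 1.32, Thy1 by 1.29, Myl9 by 1.26, Itga8 by 1.19 and Gata3 by 1.12. Tagln, at 1.62, just missed the threshold with an adjusted p of 0.0526. It was called without control rat 1 (adjusted p = 0.0164 in limma) and in 3 of 14 alternative fits other than those leaving out 1 rat. Over those 14 fits the member count ran from 0 to 7. The count was 0 without control rat 2, 1 without control rat 3, 0 without pioglitazone-treated rat 2 and 2 without pioglitazone-treated rat 4, while the 6 changes then were between 0.91 and 2.06. Over all genes, 659 were called with all rats and 48, 65, 57 and 172 in those 4 fits. The counts went the other way without control rat 1, to 7 members and 1660 of all genes. Without both control rats 2 and 3 the member count was 0, and the 6 changes were between 0.66 and 1.73. In the same comparison the fibroblast sum was 256 to 367 CPM against 73 to 156 CPM in control, the podocyte markers had a median change of 1.10 with none called, and 2 of 6 distal tubule and collecting duct markers were called lower, beside 0.287% of all genes. Their part in the members' levels was not tested. The PAN and pioglitazone comparisons share their control rats, so their values are given side by side without a measure of likeness.

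For GQ-16-treated rats against control, 0 of 9 members were called by limma, beside 0.151% of all genes higher and none lower. At an unadjusted p under 0.05, 7 of 9 were higher, beside 21.9% of all genes. Voom on the recovered reads also called 0 members. Acta2 was at 15.8, 22.4, 23.4 and 47.4 CPM, with all 4 rats above the control rats, and its change was 1.38 (SE 0.371, adjusted p = 0.0896). Myl9 also had all 4 rats above control, which makes 2 of 9 members beside 4.92% of all genes, with a change of 1.03 (SE 0.278, adjusted p = 0.0899). Thy1 had a change of 1.01, adjusted p = 0.0906. Control rat 1, the control rat with the highest level of every member, decided this count: without it 7 members were called, and the genes called over the whole table went from 20 to 1572. With all rats, 5 of 8 podocyte markers were higher at an unadjusted p under 0.05, beside 21.9% of all genes, with a median change of 1.52. The fibroblast sum was 251 to 963 CPM against 73 to 156 CPM in control, and 1 of 5 fibroblast markers was called higher, beside 0.151%. Their part in the members' levels was not tested.

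Compared with PAN rats, no member passed the threshold in either treated group. Tagln had the smallest p in both. It was at 30.8, 38.1, 42.9 and 48.0 CPM in pioglitazone-treated rats and at 20, 19.9, 37.6 and 41.9 CPM in GQ-16-treated rats, against 66.7 CPM in the lowest PAN rat. All 8 treated rats thus lay below all 4 PAN rats. The same PAN rats served both comparisons, so these separations are not independent.

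Pioglitazone against PAN gave 0 of 9 calls, and 0 of all genes were called in either direction. The Tagln change was -1.59 (SE 0.459, unadjusted p = 0.00329, adjusted p = 0.916 in limma, 95% interval -2.56 to -0.61), and -1.04 without PAN rat 1. Tagln, Pdgfra at -0.83 and Myl9 at -0.64 had an unadjusted p under 0.05, which is 3 of 9 lower beside 3.21% of all genes. Without PAN rat 1 Pdgfra was at -0.52. Of the 5 fibroblast markers 3 were lower at that threshold too, with a median of -0.99, and their part in the result was not tested. Tagln was the 1 member without overlap, beside 2.36% of all genes lower in that way. Acta2 differed by -0.73 (95% interval -1.52 to 0.06), or -0.32 without PAN rat 1, and Myh11 by -1.11 (-2.33 to 0.11). Over the alternative fits, apart from those leaving out 1 rat, the Myh11 difference ran from -1.15 to -0.22. Itga8 and Gata3 were near zero, at -0.03 and 0.04, with intervals of -0.60 to 0.55 and -0.42 to 0.49, and the sign of each turned with the scaling or with 1 rat left out. The interval for each member except Pdgfra, Tagln and Myl9 includes 0, which does not show that the levels were alike.

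GQ-16 against PAN likewise gave 0 of 9 calls, beside 0.0151% of all genes called lower. At an unadjusted p under 0.05, 5 of 9 were lower, beside 7.93% of all genes: Tagln, Acta2, Myl9, Pdgfrb and Gata3. The Tagln change was -2.06 (SE 0.459, unadjusted p = 0.000383, adjusted p = 0.282 in limma, 95% interval -3.03 to -1.08), and -1.51 without PAN rat 1. Acta2 differed by -1.34 (SE 0.371, adjusted p = 0.403), and by -0.93 without PAN rat 1. Myl9 differed by -0.87, Pdgfrb by -0.81 and Gata3 by -0.47. Of the 6 leukocyte markers, 4 were lower in this comparison at an unadjusted p under 0.05, with a median of -0.62, and their part in the result was not tested. Tagln had no overlap, beside 3.47% of all genes lower in that way, and with median-ratio scaling Pdgfrb had none either.

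Relative to Pdgfrb of the same library, the Tagln range was -3.80 to -3.12 after pioglitazone and -3.83 to -3.09 after GQ-16. Both ranges lay below that of PAN rats and overlapped that of control rats. For Acta2 the ranges were -3.91 to -3.15 with pioglitazone and -3.94 to -2.91 with GQ-16, both overlapping PAN. Myl9 with pioglitazone ran from -3.68 to -3.29, below all PAN rats, while with GQ-16 it ran from -3.40 to -3.01 and overlapped them. For these ratios too the share of all genes was not computed.

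The 2 PPARγ agonists were compared with each other without knowledge of their doses, and all 9 members were compared for this 1 pair. None passed the threshold, and 1 of 9 had an unadjusted p under 0.05, beside 5.52% of all genes lower. That gene was Gata3, at 101, 112, 94.5 and 88.2 CPM with pioglitazone and 52.0, 64.9, 88.2 and 76.9 CPM with GQ-16. The difference, GQ-16 minus pioglitazone, was -0.51 (SE 0.212, unadjusted p = 0.0302, adjusted p = 0.772 in limma, 95% interval -0.96 to -0.06). Pdgfrb was at 430, 440, 373 and 504 CPM with pioglitazone and at 233, 284, 359 and 357 CPM with GQ-16. Its rats did not overlap and the difference was -0.52 (95% interval -1.13 to 0.10). Gata3 and Pdgfrb were the 2 members without overlap, beside 1.94% of all genes lower in that way, and with median-ratio scaling only Pdgfrb remained so. For Gata3 the gap was minimal, since the nearest rats of the 2 groups both round to 88.2 CPM. The intervals of the other 7 members all included 0, from -1.45 to 0.50 for Tagln and from -1.40 to 0.18 for Acta2, so a level 2-fold lower with GQ-16 lies within both. Of 11 pericyte genes listed further on, 4 were lower at an unadjusted p under 0.05, beside 5.52% of all genes. Distal tubule and collecting duct markers had a median difference of 0.576, and podocyte markers one of 0.395 with all 8 positive. Their part in the members' levels was not tested.

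By group mean as deposited, the levels of Pdgfrb, Itga8, Thy1, Acta2, Tagln and Myl9 had the same order, PAN, pioglitazone, GQ-16, control. Mean levels were 555 ± 182, 437 ± 53.7, 308 ± 61.0 and 187 ± 82.7 CPM for Pdgfrb (SD, n = 4). For Tagln they were 156 ± 147, 40.0 ± 7.30, 29.8 ± 11.5 and 13.7 ± 8.71 CPM. Gata3 had a mean of 99.0 ± 10.2 CPM with pioglitazone and 96.9 ± 13 CPM in PAN, and Myh11 had 23.7 ± 20.9 CPM with GQ-16 and 20.5 ± 14 CPM with pioglitazone. Pdgfra was highest in PAN and lowest with pioglitazone, at 7.81 ± 4.15 CPM. No 2 neighbours in any of these orders differed at the threshold. The share of all genes with the order of Pdgfrb was not computed. The median change of all genes against control fell the same way, from 0.28 for PAN to 0.21 for pioglitazone and 0.17 for GQ-16. With median-ratio scaling those medians were -0.0032, 0.009 and 0.0038. Under that scaling the log2 level of Itga8 was 0.057 higher after pioglitazone than in PAN. Pdgfrb, Thy1, Acta2, Tagln and Myl9 kept their order there.

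Within groups, members varied together from rat to rat in part. After each group was centred on its own mean, Pearson's r over 16 rats was 0.948 between Pdgfrb and Myl9, 0.927 between Itga8 and Gata3, 0.882 between Pdgfrb and Thy1 and 0.834 between Acta2 and Tagln. Acta2 followed Itga8 and Gata3 less, at 0.293 and 0.214. Pdgfra had values from -0.142 to 0.561 with the other members. All values share the library and its scaling, so these correlations are descriptions. Among 11615 genes with a mean of at least 5 CPM, the 5 most like Pdgfrb by this measure were Cd248, at 0.981, Fhl2, Dbn1, Dennd2a and LOC100911932, at 0.967. All 5 rose in PAN rats, with adjusted p-values from 0.00117 to 0.00684 in limma, beside 21.7% of all genes called higher. The 5 most like Acta2 were Plekhm2, at 0.92, Cyp4v3, Cebpd, NEWGENE_621351 and Cp, at 0.875. Of these 5 only NEWGENE_621351 passed the threshold in PAN against control, beside the same 21.7% of all genes. Its mean went from 21.9 to 190 CPM (log2 change 2.46, adjusted p = 0.00602 in limma). The other 4 had positive changes, from 0.37 to 1.14, with adjusted p-values from 0.0507 to 0.123.

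Other contractile genes of smooth muscle rose in PAN as well. Of 24 listed contractile genes in the table, 14 were called higher, beside 21.7% of all genes, and none lower. With median-ratio scaling 10 were, beside 7.12%. The count was 9 without control rat 2 and 8 without control rat 3, where 860 and 838 of all genes were called, against 2943 with all rats. The median change was 0.77 beside 0.28 for all genes. Des, which encodes the intermediate filament desmin and is expressed by injured podocytes as well as by mesangial and muscle cells, had the largest change. Its level was 37.5 to 148 CPM in control and 555 to 942 CPM in PAN, a log2 change of 3.25 (SE 0.409, adjusted p = 0.000379 in limma). Tpm2, a tropomyosin that lies along actin filaments, ran from 9.09 to 27.1 CPM in control and from 63.6 to 130 CPM in PAN, a change of 2.25 (SE 0.323). Cnn2, a calponin whose promoter letters are shown above, rose from a mean of 66.3 ± 12.3 to 109 ± 18 CPM. That change, 0.71, was called as deposited (adjusted p = 0.0203) and not with median-ratio scaling (adjusted p = 0.0871).

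Of 5 genes for serum response factor and its partners in the table, 2 were called higher, beside 21.7% of all genes, and none with median-ratio scaling. The count was 0 without control rat 2 or 3 or PAN rat 1, 2 or 3, 1 without PAN rat 4 and 3 without control rat 1. Of all genes, 838 to 1958 were called in the fits with 0, 3221 without PAN rat 4 and 4964 without control rat 1. Srf itself had means of 79.8 ± 23.8 CPM in control rats and 119 ± 8.30 CPM in PAN rats. The change was 0.61 (adjusted p = 0.0486 in limma), and 0.31 with median-ratio scaling (adjusted p = 0.152). Mrtfa, an actin-sensing cofactor of Srf, had a change of 0.48 (adjusted p = 0.0333), and 0.19 with median-ratio scaling (adjusted p = 0.244). The rats of the groups overlapped for both genes. Myocd and Mrtfb were not analysed here.

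Among 19 mesangial genes outside the members, 15 were called higher, beside 21.7% of all genes, 13 with median-ratio scaling, beside 7.12%, and none lower, with a median change of 1.32. Ccn2, a matricellular growth factor also known as CTGF, ran from 75.5 to 562 CPM in control and from 668 to 1400 CPM in PAN, a change of 2.39 (SE 0.573, adjusted p = 0.012 in limma). Tcf21, a transcription factor of podocytes and stromal cells, changed by 2.18 (SE 0.648, adjusted p = 0.0287) with overlapping rats and an adjusted p of 0.0618 with median-ratio scaling. Both genes are expressed by podocytes too, and 7 of the 8 podocyte markers had a positive change, 2 of them called. Fhl2, a LIM-domain protein, rose from 29.1 ± 14.7 to 117 ± 46.0 CPM. Dgkh, which has a full promoter match like Fhl2, was at 26.1 ± 5.56 CPM in control and 22.3 ± 3.82 CPM in PAN, a change of -0.21 (adjusted p = 0.528).

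Pericytes, the mural cells of small vessels, share Pdgfrb with mesangial cells. Of 11 listed pericyte genes in the table, 4 were called higher, beside 21.7% of all genes, and none lower, with a median change of 0.94. With median-ratio scaling 4 were called too, beside 7.12%. Notch3, a receptor of mural cells, rose from a mean of 99.2 ± 25.2 to 239 ± 43.1 CPM (log2 change 1.28, adjusted p = 0.00122 in limma). Ndufa4l2, a mitochondrial protein of pericytes, rose from 21.8 ± 11.9 to 44.9 ± 9.86 CPM (1.15, adjusted p = 0.0146). Without control rats 2 and 3 the counts were 4 of 24 contractile, 2 of 19 mesangial and 0 of 11 pericyte genes, and with the library-number term they were 5, 4 and 2. Calls over all genes also fell in both fits, as given above.

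**Figure D4:**
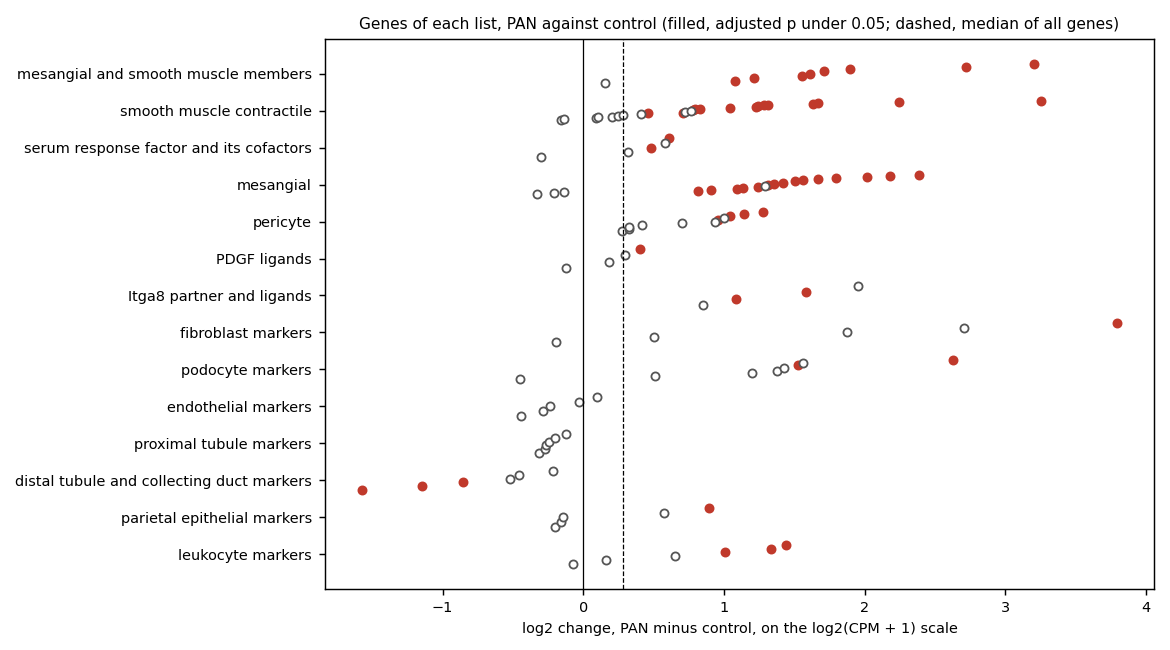
Log2 change from control to PAN of every gene in each list, on the log2(CPM + 1) scale, with filled points for an adjusted p under 0.05 and a dashed line at 0.28, the median of all genes. Member, mesangial, contractile, pericyte, podocyte, fibroblast and leukocyte genes lie mostly to the right of the line, and endothelial and tubule genes to its left.

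The 4 ligands of the PDGF receptors had changes from -0.12 to 0.40, beside 1.61 for Pdgfrb. Pdgfb, the ligand of Pdgfrb from endothelial cells, had a change of 0.30 (adjusted p = 0.221 in limma) and -0.004 with median-ratio scaling. Pdgfa was called as deposited, at 0.40 (adjusted p = 0.0493), and not with median-ratio scaling, at 0.11. Pdgfc and Pdgfd had changes of -0.12 and 0.19 and were not called. Whether the ligand and receptor changes differ was not tested.

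Integrin α8 pairs with the β1 chain, encoded by Itgb1, and binds nephronectin, encoded by Npnt, fibronectin and osteopontin. Itgb1 rose from a mean of 671 ± 275 to 1360 ± 236 CPM (log2 change 1.09, adjusted p = 0.0166 in limma), and was also called with median-ratio scaling. Npnt, which podocytes make, was at 178 ± 169 CPM in control rats and 415 ± 94.0 CPM in PAN rats. A change of 1.58 was called as deposited (adjusted p = 0.0476) and not with median-ratio scaling (adjusted p = 0.115). Fn1 had a change of 0.85 and Spp1 of 1.95, with adjusted p-values of 0.145 and 0.134. The Spp1 level in PAN rats ran from 24.8 to 1960 CPM.

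Markers of other glomerular and kidney cells are set beside these counts. Of 5 endothelial and 6 proximal tubule markers, none was called in PAN against control, and the median changes were -0.24 and -0.26. The 8 podocyte markers had a median change of 1.40, with 2 called higher, 1 with median-ratio scaling. Of 6 distal tubule and collecting duct markers, 3 were called lower, with a summed level of 898 to 1590 CPM in control and 482 to 1030 CPM in PAN. Of 6 leukocyte markers 3 were called higher, and 0 with median-ratio scaling, with sums of 325 to 604 and 563 to 1190 CPM. Of 5 fibroblast markers 1 was called higher under either scaling, Col1a1, but their median change was 1.87, and their sums, 73 to 156 CPM in control and 177 to 2640 CPM in PAN, did not overlap. Of all genes, 21.7% were called higher and 0.522% lower as deposited, and 7.12% were called higher with median-ratio scaling. The summed level of the 9 members was 348 to 882 CPM in control, 1350 to 2230 in PAN, 1160 to 1470 after pioglitazone and 740 to 1250 after GQ-16. It was lowest in control rats 2 and 3, at 426 and 348 CPM, where the podocyte sum was also lowest, at 2110 and 2130 CPM. What part the make-up of the sieved tissue had in the members' levels was not tested.

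**Figure D5:**
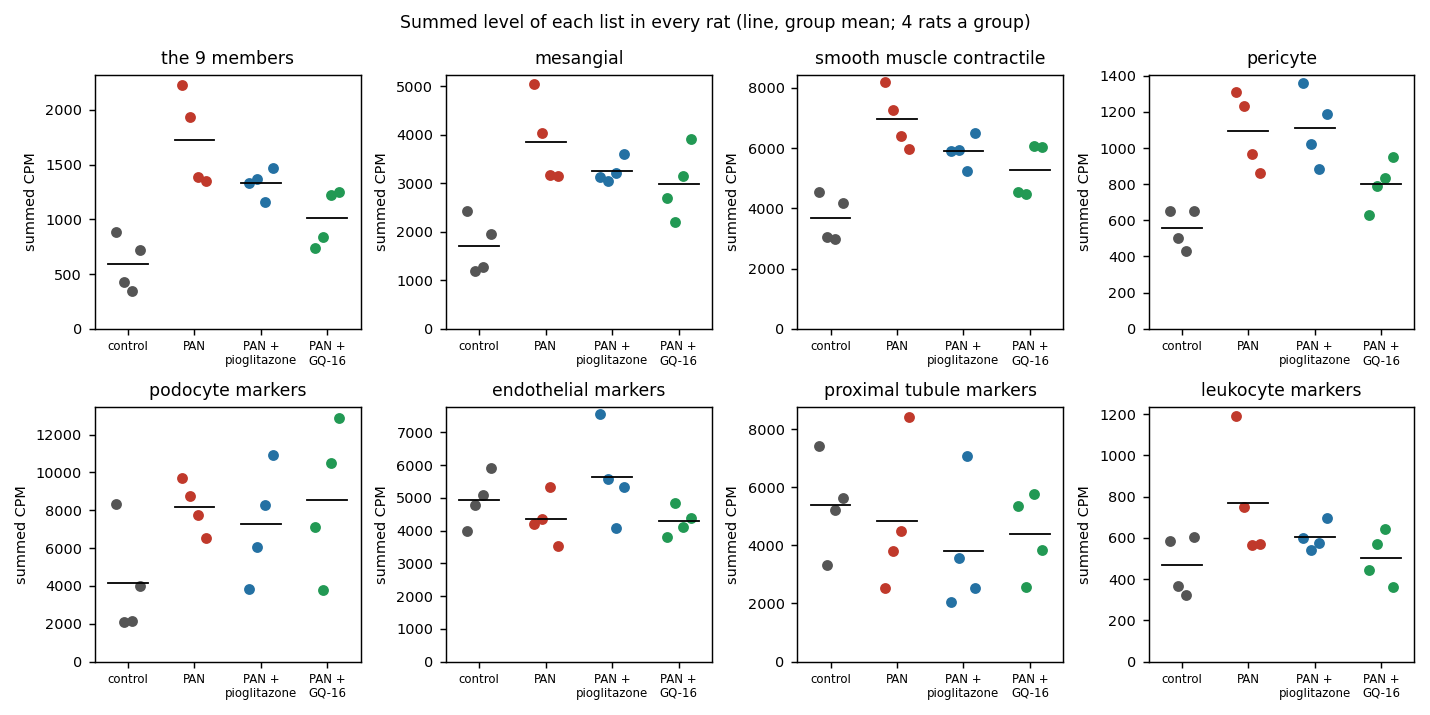
Summed CPM of the 9 members and of 7 marker lists in every rat, on linear axes from 0, with a line at the group mean. The members' sum in PAN, 1350 to 2230 CPM, lies above that of all control rats, 348 to 882 CPM, as do the mesangial, contractile and pericyte sums, while endothelial, proximal tubule, podocyte and leukocyte sums overlap between PAN and control.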

How the data were processed

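The deposited table holds log2 CPM values made by the authors with 0.5 read added to each count and 1 to each total. Per the submitters' processing notes HISAT2, featureCounts, Subread and limma were used with build Rnor_6.0, and versions are not given in the sources used here. Undoing the log2 step gave whole reads for 100% of values, within 0.01 read. From these, log2(CPM + 1) was fitted in limma 3.58.1 (R 4.3.3) with 4 group means, all 16 libraries and a variance trend, and p-values were adjusted by Benjamini-Hochberg over 13222 genes. All tests were two-sided. The design had foreseen raw counts as well, and the branch for normalized values was used. Reads were simulated from each gene's mean over all 16 libraries, with a fixed spread and 200 genes changed in the PAN libraries. There the fit over 13222 genes recovered 7% of 100 changes of 2-fold and 85% of 100 changes of 4-fold. Neither the spread nor the number of changed genes was taken from the real data, so these shares do not measure its power. Alternatives covered scaling, pseudocount, filter, voom weights, library numbers, mitochondrial share and leaving out each rat.

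The members and gene lists were chosen with earlier results of these data known. Named genes are the members, the 2 largest called rises in each of 4 lists, the serum response factor genes, the PDGF ligands, the partners of Itga8 and the 5 genes most like Acta2 and Pdgfrb. Cnn2, Fhl2 and Dgkh were added for their promoter matches, and Col1a1 after its values were seen. One listed marker is not reported here. Replicate numbers follow accession order and only name rats. That rats are separate rests on the labels, so p-values measure the spread between these samples. Whether counting used strand is not given in the sources used here. Promoter sequences are from RefSeq, GRCr8.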

Additional observations from a re-analysis of the deposited data

How the results depend on the processing

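No paired analysis was possible because the labels give no replicate numbers shared between groups. Leaving out libraries over 30% mitochondrial reads and joining the library-number term with median-ratio scaling were chosen after seeing the data. Members called in PAN against control, 8 of 9, numbered 7 with median-ratio scaling, quantile normalization, totals without mitochondrial genes or voom, 5 with the library-number term with or without median-ratio scaling, and 2 among library numbers of 15 or lower. They numbered 3 without the controls over 30% and 0 without all libraries over 30%, under either scaling, where fewer samples were tested, and 7 to 8 with each rat left out. In pioglitazone-treated against control, 6 of 9, the count was 3 among library numbers of 15 or lower, 0 in each fit without high mitochondrial libraries and 0 to 7 with each rat left out. In GQ-16-treated against control, 0 of 9, it was 1 among library numbers of 15 or lower and 0 to 7 with each rat left out. In the 3 comparisons among PAN-injected groups it stayed 0 in every fit run.

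Signs turned only for changes that were not called. Pdgfra in PAN against control, 0.156, became -0.124 with median-ratio scaling, -0.138 with totals without mitochondrial genes, -0.173 with quantile normalization, -0.115 with voom and -0.076 without high mitochondrial libraries or controls under median-ratio scaling, and ran from -0.155 to 0.37 with each rat left out. Itga8 in pioglitazone-treated against PAN, -0.027, became 0.057 with median-ratio scaling, with totals without mitochondrial genes and without high mitochondrial libraries under median-ratio scaling. It was 0.068 with quantile normalization, 0.047 with voom, 0.033 with the library-number term, 0.053 with that term and median-ratio scaling, and -0.115 to 0.097 with each rat left out. Gata3 in the same comparison, 0.035, became -0.006 with the library-number term, -0.088 among library numbers of 15 or lower and -0.033 to 0.093 with each rat left out. Among library numbers of 15 or lower Pdgfrb and Acta2 there were 0.217 and 0.209, and Myh11 in GQ-16-treated against pioglitazone-treated was -0.098, with -0.483 to 0.495 when each rat was left out. Myh11 in pioglitazone-treated against control was -0.008 with the library-number term and median-ratio scaling. The cause was not tested.

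Over all genes, 2943 were called in PAN against control, 1141 with median-ratio scaling, 1580 in a fit of these 2 groups, 393 with the library-number term, 79 among library numbers of 15 or lower, 127 without the controls over 30% and 56 without all libraries over 30%, with 838 (without control rat 3) to 4964 (without control rat 1) when each rat was left out. For pioglitazone-treated against control 659 were called, 377 with median-ratio scaling and 0 without all libraries over 30%. For GQ-16-treated against control 20 were called and 98 with median-ratio scaling.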
